A study of Mus musculus with 9 samples.

Results

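A pair of short hairpin RNAs against the same gene, Med4, was compared in mouse breast carcinoma cells, with 3 libraries of shMed4 #4 set against 3 libraries of shMed4 #1. These 6 libraries of the 9 in the series were chosen by their labels alone. The other 3 carry a non-targeting control hairpin (NTC) and entered no test, although their levels are given for orientation. All groups were D2A1-d cells, a murine mammary carcinoma line, labelled as wild type, untreated and of breast, and they differed in the hairpin introduced by transduction. The labels number the libraries as biological replicates but do not say whether each came from its own transduction, so p-values measure only the spread between these libraries. The comparison asks where 2 knockdowns of 1 gene part from each other.

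Med4 encodes a subunit of the middle module of Mediator, the large complex through which DNA-bound transcription factors reach RNA polymerase II. A short hairpin RNA is processed by the RNA interference machinery into a small RNA that directs the cleavage or repression of matching transcripts. Interferon signalling runs from receptors over JAK kinases to STAT factors and IRF9, which bind an element built of repeated GAAA in the promoters of interferon-stimulated genes. Such genes encode antiviral effectors, nucleic acid sensors and the machinery of antigen presentation.

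The 6 libraries held 8096662 to 8582235 reads assigned to genes. Shares of counts from mitochondrial genes were 5.76% ± 0.32 (SD, n = 3) with shMed4 #1 and 5.89% ± 0.13 (SD, n = 3) with shMed4 #4, and genes with at least 1 read numbered 21120 ± 139 and 20474 ± 54. Correlations of log-CPM over genes were 0.992 to 0.994 within groups and 0.978 to 0.981 between them. Epithelial markers were mixed. Cdh1, which encodes E-cadherin, had 0 reads in all 9 libraries, and Epcam had 1 read in all, while the simple keratin genes Krt8 and Krt18 stood at 19.2 ± 0.49 and 80.6 ± 8.8 CPM (SD, n = 3) with shMed4 #1 and 53.8 ± 3.2 and 132.6 ± 9.7 CPM with shMed4 #4. Vim, the mesenchymal intermediate filament, stood at 1407, 1568 and 1522 CPM with shMed4 #1 and 1089, 1138 and 1076 CPM with shMed4 #4. Cdh2 and Fn1, the other mesenchymal markers set for this check, did not fall with it. Genes of a longer mesenchymal list, described below, went both ways, with Cdh11 and Fat4 lower. Cdh2 had 9 reads over the 3 libraries of shMed4 #1 and 41 over those of shMed4 #4. Fn1 stood at 3159 ± 43 CPM (SD, n = 3) with shMed4 #1 and 3342 ± 309 CPM with shMed4 #4. The pan-leukocyte gene Ptprc had 4 and 2 reads and the endothelial gene Pecam1 13 and 10 reads over the 3 libraries of shMed4 #1 and shMed4 #4. Other genes listed as leukocyte or endothelial markers were well read, with Cd14 at 76.7 and 75.3 CPM, Csf1r at 10.2 and 10.9 CPM and Flt1 at 22.97 and 28.98 CPM. CPM here are read counts scaled by library size and TMM factor.

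Med4 was lower than in NTC with both hairpins and was higher with shMed4 #4 than with shMed4 #1. Med4 (protein-coding, on chromosome 14 from 73510025 to 73518849 of GRCm38, identifier ENSMUSG00000022109.6) had 40, 35 and 38 reads with shMed4 #1, 66, 60 and 50 reads with shMed4 #4 and 236, 216 and 204 reads in NTC. These correspond to 4.53 ± 0.39, 7.21 ± 0.97 and 27.5 ± 2.2 CPM (mean ± SD, n = 3 each). Every shMed4 #4 library lay above every shMed4 #1 library, and all 6 lay far below NTC. The difference of shMed4 #4 minus shMed4 #1 was 0.66 (SE 0.19, adjusted p = 0.00764) on the log2 scale by edgeR's quasi-likelihood test with Benjamini-Hochberg adjustment over all genes, which is the test behind every adjusted p given here unless DESeq2 is named. With DESeq2 the log2 difference was 0.67 and its adjusted p was 0.0689, so the call was lost with that tool. With limma-voom the log2 difference was 0.65 and the call was kept.

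Among 32 Mediator subunits tested, Med4 and 2 others were higher with shMed4 #4 and 1 was lower, against 13.9% of all genes tested that were higher and 14.0% that were lower. The others that passed were Ccnc, the cyclin of the kinase module, at 0.25 (adjusted p = 0.0097), Med7 of the middle module at 0.22 (adjusted p = 0.0396), and Med27 at -0.36 (adjusted p = 0.0497). These calls were narrow. Med27 lost the threshold under 10 alternative settings, Med7 under 9, and Ccnc without shMed4 #1 replicate 3 (adjusted p = 0.113) or without shMed4 #4 replicate 3 (adjusted p = 0.0551). The median over the list was 0.02, and the scaffold subunit Med14 stood at 0.10 (adjusted p = 0.241).

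Over the transcriptome the hairpins differed at many genes, mostly by small amounts. Of 13844 genes tested, 3862 passed an adjusted p of 0.05 (27.9%), with 1930 higher and 1932 lower with shMed4 #4. Of these calls, 75.0% were under 1.5-fold. Changes of at least 2-fold were unevenly divided, with 77 genes higher (0.556% of genes tested) and 331 lower (2.39%). The median log2 difference over all genes tested was 0.00. The 3 libraries of each hairpin did not overlap in CPM at 5607 genes (40.5%). Genes at least 2-fold lower had a median level of 2.56 CPM and 72.2% were protein-coding, against 29.4 CPM and 82.7% over all genes tested.

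The NTC libraries place these differences. Of the 331 genes at least 2-fold lower with shMed4 #4, NTC lay above both hairpins for 156, between them for 150 and below both for 25. For the 77 genes at least 2-fold higher, NTC lay below both hairpins for 57, between them for 18 and above both for 2. Over all 13844 genes tested, NTC lay above both for 5623, between them for 2740 and below both for 5481. Genes chosen for a wide gap between the hairpins leave more room for NTC to lie between. These positions compare group means and were not tested.

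**Figure D1:**
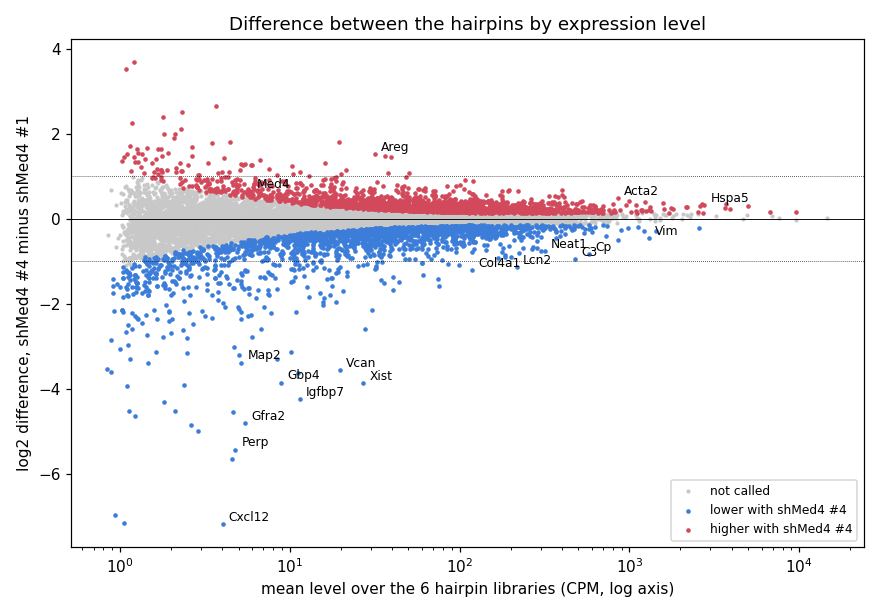
Log2 difference of shMed4 #4 minus shMed4 #1 (vertical axis) against mean CPM over the 6 libraries on a log axis (horizontal), 1 point per gene for the 13844 genes tested, with genes past an adjusted p of 0.05 coloured by direction. Genes at least 2-fold lower (331) outnumber those at least 2-fold higher (77), mostly at low levels.

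Interferon-stimulated genes were lower with shMed4 #4 than with shMed4 #1 almost throughout their list. Of 60 listed, 46 were tested, 41 of these were lower with shMed4 #4, and the other 5 (Lgals9, Ifi203, Ifitm2, Ifi204 and Ifi47) did not pass. The list was chosen with earlier results of these data known, so its direction is not independent evidence. Its median log2 difference was -1.18, beside 0.00 over all genes tested, and 26 members were at least 2-fold lower. Over the alternative settings 37 to 42 members were lower and the median ranged from -1.27 to -1.15. The promoters of several of these genes carry the GAAA repeat. To show it, stretches of 100 bases upstream of the start site are printed from the RefSeq table on GRCm38.p6, read on the gene's strand, with GAAA-NN-GAAA (N is any base) or its reverse complement in capitals and overlapping matches merged.
Gbp3 (chr3:142559944-142560043, plus strand): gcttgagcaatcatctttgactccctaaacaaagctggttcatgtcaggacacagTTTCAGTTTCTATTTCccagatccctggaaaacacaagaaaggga
Ifit1 (chr19:34640740-34640839, plus strand): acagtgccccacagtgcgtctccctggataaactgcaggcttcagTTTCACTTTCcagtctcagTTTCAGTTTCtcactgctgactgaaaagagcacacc
Isg15 (chr4:156200842-156200941, minus strand): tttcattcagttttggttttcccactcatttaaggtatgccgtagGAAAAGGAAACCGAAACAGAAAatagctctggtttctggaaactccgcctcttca
Oas1a (chr5:120907526-120907625, minus strand): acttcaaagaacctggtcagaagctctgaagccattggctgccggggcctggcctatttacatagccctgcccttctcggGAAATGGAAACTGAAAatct
Oas3 (chr5:120777680-120777779, minus strand): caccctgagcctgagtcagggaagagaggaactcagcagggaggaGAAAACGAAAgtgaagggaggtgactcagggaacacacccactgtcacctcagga
Bst2 (chr8:71537548-71537647, minus strand): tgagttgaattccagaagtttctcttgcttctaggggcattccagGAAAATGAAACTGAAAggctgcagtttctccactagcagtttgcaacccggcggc

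Antiviral effectors from this list were low with shMed4 #4 in each library. Isg15, a ubiquitin-like modifier, stood at 30.4, 28.1 and 22.2 CPM with shMed4 #1, 9.24, 8.2 and 5.89 CPM with shMed4 #4 and 10.6, 9.99 and 10.7 CPM in NTC. The shMed4 #1 libraries were high, while shMed4 #4 lay below the NTC level, and the hairpins did not overlap, with a log2 difference of -1.79 (SE 0.14, adjusted p = 3.18e-11). Ifit1, which binds foreign RNA at its 5′ end, had 10.3, 8.94 and 6.12 CPM with shMed4 #1, 2.19, 1.49 and 1.84 CPM with shMed4 #4 and 2.62, 2.33 and 3.69 CPM in NTC, with a log2 difference of -2.19 (SE 0.24, adjusted p = 3.17e-08). Here too the hairpins did not overlap, and NTC lay close above shMed4 #4. Oas3 and Oas1a, which make the second messenger that activates RNase L, stood at log2 differences of -3.01 (adjusted p = 7.95e-11) and -1.72 (adjusted p = 4.06e-06). Bst2, the tether that holds budding virus at the membrane, had 119, 133 and 115 CPM with shMed4 #1, 79.7, 86.9 and 78.4 CPM with shMed4 #4 and 72.7, 81.6 and 81.6 CPM in NTC, a smaller difference of -0.59 (SE 0.06, adjusted p = 1.94e-08). Genes whose promoters are printed were chosen after their values were seen, except Gbp3.

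Guanylate-binding proteins, interferon-induced GTPases that attack intracellular pathogens, included the largest falls of the list. Gbp3 (ENSMUSG00000028268.14, chromosome 3, 142560026 to 142573209 in GRCm38) had 20.4, 18.4 and 16.4 CPM with shMed4 #1, 2.31, 1.99 and 1.96 CPM with shMed4 #4 and 7.37, 6.62 and 7.75 CPM in NTC. All shMed4 #4 libraries lay below all others, and the log2 difference from shMed4 #1 was -3.13 (SE 0.18, adjusted p = 2.5e-14). Gbp4 had 16.6, 18.2 and 15 CPM in the shMed4 #1 libraries and 0.487, 2.23 and 0.736 CPM in the shMed4 #4 libraries, with a log2 difference of -3.85 (SE 0.24, adjusted p = 2.22e-13), and Gbp9, at -3.61, overlaps it on the same strand, so reads of these 2 are uncertain. Gbp2 had 23.7, 28.1 and 23.6 CPM with shMed4 #1, 5.11, 7.95 and 6.38 CPM with shMed4 #4 and 20.9, 21.4 and 21.3 CPM in NTC, with a log2 difference of -1.96 (SE 0.14, adjusted p = 2.45e-12). For Gbp2, NTC was near shMed4 #1 and shMed4 #4 was the group that stood apart. Family members share sequence, and reads placed at several loci were not counted, so single Gbp, Oas and Ifit values are uncertain.

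Parp9, an interferon-induced ADP-ribosylation factor, and Rtp4, an interferon-inducible chaperone of membrane receptors, are further members of the list that were lower. Parp9 had 55.2, 49 and 47.1 CPM with shMed4 #1, 18, 18.1 and 20.1 CPM with shMed4 #4 and 29.9, 35.5 and 33.1 CPM in NTC, with NTC between the hairpins and a log2 difference of -1.43 (SE 0.09, adjusted p = 1.96e-13). Rtp4 had 11.9, 12.7 and 10.3 CPM with shMed4 #1, 2.8, 0.869 and 2.09 CPM with shMed4 #4 and 3.12, 3.76 and 3.2 CPM in NTC, with NTC close to shMed4 #4 and a log2 difference of -2.59 (SE 0.23, adjusted p = 3.41e-10). Summed over the 46 tested members, CPM were 1547, 1574 and 1434 with shMed4 #1 and 1002, 974 and 952 with shMed4 #4. The NTC sums of 933, 996 and 999 overlapped those of shMed4 #4. By group means of single genes, NTC lay below both hairpins for 15 members, between them for 28 and above both for 3.

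**Figure D2:**
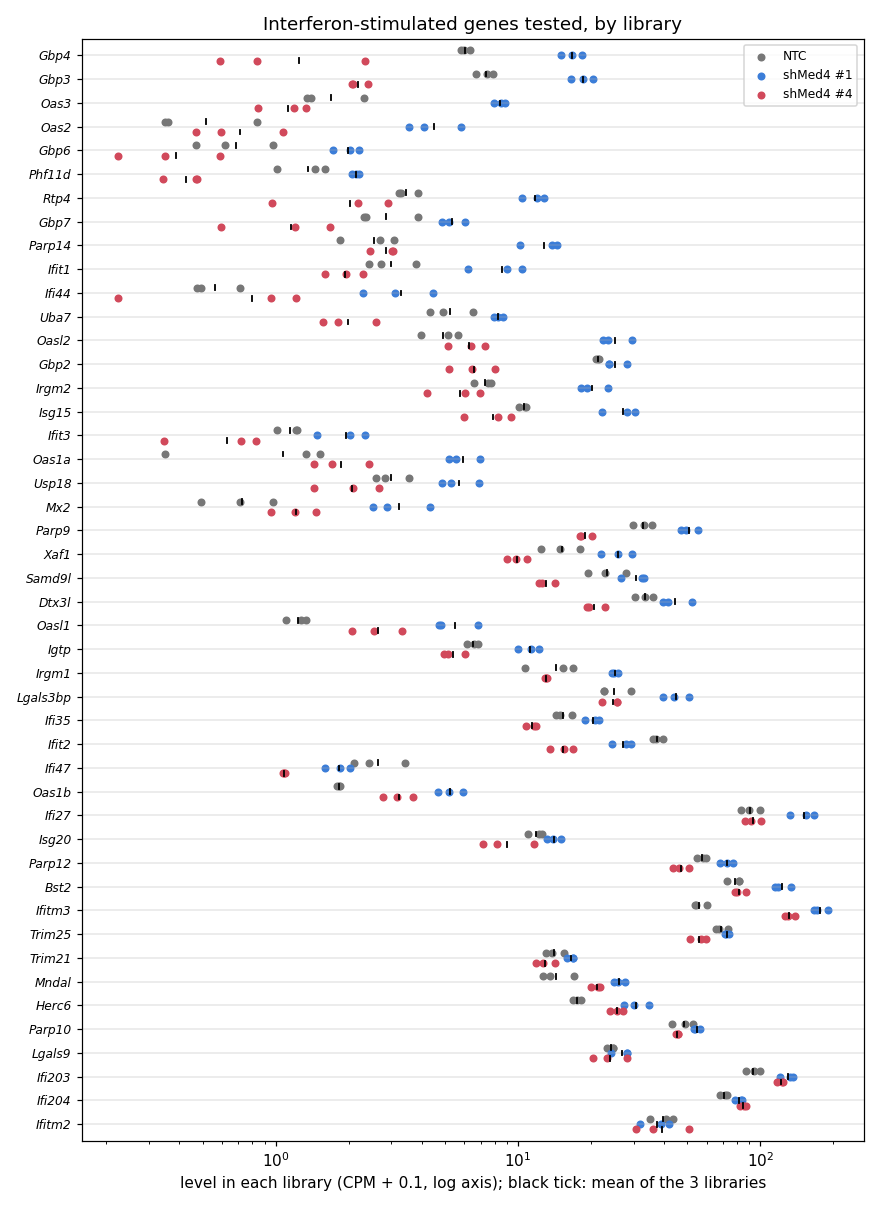
CPM per library on a log axis for interferon-related genes, with 3 points per gene for NTC, shMed4 #1 and shMed4 #4. The shMed4 #1 libraries are the highest for most genes shown, for instance Isg15 at 30.4, 28.1 and 22.2 CPM against 9.24, 8.2 and 5.89 CPM with shMed4 #4.

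Sensors of foreign nucleic acid, and the signalling proteins above the interferon-stimulated genes, were also more often lower than higher. Of 18 sensing genes tested, 11 were lower and 1 was higher with shMed4 #4 (median -0.34). Irf7, the factor that amplifies type I interferon production, had 10.8, 9.54 and 9.59 CPM with shMed4 #1, 3.04, 2.48 and 2.7 CPM with shMed4 #4 and 1.25, 1.69 and 1.72 CPM in NTC, with a log2 difference of -1.86 (SE 0.19, adjusted p = 7.17e-09). Zbp1, a sensor of left-handed nucleic acid, differed by -2.08 (SE 0.25, adjusted p = 1.56e-07), and Ddx58, which encodes the RNA sensor RIG-I, had 84, 80.8 and 78.3 CPM with shMed4 #1, 40.6, 38.7 and 39.4 CPM with shMed4 #4 and 36, 40.1 and 34.3 CPM in NTC, a difference of -1.04 (SE 0.07, adjusted p = 3.78e-13). For Irf7 and Ddx58 the hairpins did not overlap. The member that was higher, Tmem173, encodes the adaptor STING and stood at 0.34 (adjusted p = 0.000609). Aim2, the sensor of cytosolic DNA, is among the genes near 0 reads described further on.

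Of 19 tested genes for interferon receptors, JAK kinases, STATs and IRFs, 9 were lower and 1 was higher (median -0.20). Irf9, the DNA-binding partner of STAT factors, had 52, 50.5 and 48.3 CPM with shMed4 #1, 30.6, 28.1 and 24.6 CPM with shMed4 #4 and 22.7, 22.6 and 28.6 CPM in NTC, with NTC near shMed4 #4 and a log2 difference of -0.86 (SE 0.08, adjusted p = 2.94e-09). Irf2 differed by -0.60 (SE 0.09, adjusted p = 2.92e-06), Irf1 by -0.49 (SE 0.07, adjusted p = 4.77e-06) and Stat2 by -0.42 (SE 0.08, adjusted p = 0.00015). The member that was higher was Ptpn6, a phosphatase that dampens cytokine signalling, at 0.31 (adjusted p = 0.00466).

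The GAAA repeat was counted in windows of 250 bases before to 50 bases after the start site, on both strands, for the 9671 tested genes with a RefSeq window. GAAA-NN-GAAA was found for 18 of 34 interferon-stimulated genes with a window (52.9%), 351 of all 9671 (3.63%) and 1131 of all 32851 windows (3.44%). Among genes at least 2-fold lower it was found for 22 of 183 (12.02%), and among those at least 2-fold higher for 2 of 47 (4.26%). Leaving out the interferon-stimulated list, it remained in 12 of 165 genes at least 2-fold lower (7.27%), which include Ddx58, Erap1, H2-T23 and Saa3. Of the 333 tested genes that have the repeat and are not on the list, 49 were higher and 67 were lower (20.1%), with a median of -0.02. A match describes these letters only and shows no binding.

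Antigen presentation by MHC class I, which displays cell peptides to T cells, was lower at most of its genes. Of 24 tested, 16 were lower and 1 was higher with shMed4 #4 (median -0.55). H2-T23, a non-classical class I chain, had 28.6, 32.5 and 34 CPM with shMed4 #1, 9.12, 10.2 and 9.94 CPM with shMed4 #4 and 17.4, 18 and 19.9 CPM in NTC, with a log2 difference of -1.71 (SE 0.11, adjusted p = 4.37e-13). NTC lay between the hairpins, which did not overlap. Erap1, the aminopeptidase that trims peptides, differed by -1.03 (SE 0.07, adjusted p = 8.73e-13), Tapbp, which loads them, by -0.67 (SE 0.05, adjusted p = 1.8e-11), and H2-Q4 by -0.95 (SE 0.07, adjusted p = 2.26e-11). Among members chosen after their values were seen, the peptide transporter genes Tap1 and Tap2 differed by -1.05 and -1.08, and B2m, the common light chain, by -0.41. Pdia3, an oxidoreductase that also serves general protein folding, was higher at 0.15 (adjusted p = 0.0317), a call lost without shMed4 #1 replicate 2 or 3 or shMed4 #4 replicate 2. The list's summed CPM overlapped between hairpins, at 9951, 9918 and 9245 against 9732, 9716 and 9404. H2 genes resemble one another, and 24.9% of Tapbp and 19.1% of H2-Q4 exon length overlaps a gene on the other strand with no stated strand setting.

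Complement and acute-phase genes, secreted factors of innate defence, were lower at 8 of 9 tested members with shMed4 #4 (median -0.94). C3, the central complement protein, had 569, 674 and 642 CPM with shMed4 #1, 325, 341 and 323 CPM with shMed4 #4 and 724, 859.9 and 836 CPM in NTC. The hairpins did not overlap and NTC was the highest group, with a log2 difference between hairpins of -0.94 (SE 0.06, adjusted p = 7.56e-14). Saa3, an acute-phase apolipoprotein, had 47.2, 53.9 and 49 CPM with shMed4 #1, 11.2, 12.3 and 10.9 CPM with shMed4 #4 and 19.9, 17.8 and 21.9 CPM in NTC, with a log2 difference of -2.13 (SE 0.10, adjusted p = 2.26e-16). Lcn2, which sequesters bacterial siderophores, had 261, 347 and 287 CPM with shMed4 #1, 146, 139.7 and 124 CPM with shMed4 #4 and 521, 569 and 581 CPM in NTC, a difference of -1.13 (SE 0.07, adjusted p = 3.89e-13). Saa3 was thus highest with shMed4 #1 and Lcn2 in NTC, but both were lowest with shMed4 #4. Cp, the copper carrier ceruloplasmin, had 708, 791 and 731 CPM with shMed4 #1, 401, 435 and 418 CPM with shMed4 #4 and 763, 869.8 and 816 CPM in NTC, with a log2 difference of -0.84 (SE 0.05, adjusted p = 1.89e-13). The list's summed CPM were 1961, 2274 and 2099 with shMed4 #1 and 1139, 1178 and 1135 with shMed4 #4.

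Chemokines, cytokines and targets of NF-kB were lower at 20 of 33 tested members and higher at 3 (median -0.48). Cxcl5, a neutrophil chemokine, had 291, 292 and 269.5 CPM in the shMed4 #1 libraries and 162, 168 and 164 CPM in the shMed4 #4 libraries, which did not overlap, and differed by -0.79 (SE 0.05, adjusted p = 5.27e-13). Cx3cl1, a membrane-bound chemokine, differed by -0.64 (SE 0.07, adjusted p = 1.19e-08), and Rela, the transactivating NF-kB subunit, had 104, 114 and 110.4 CPM in the shMed4 #1 libraries and 67.3, 69.9 and 65.5 CPM in the shMed4 #4 libraries, a difference of -0.70 (SE 0.06, adjusted p = 2.4e-10). The 3 higher members were Il11 at 0.70 (adjusted p = 0.00338), Lif at 0.36 (adjusted p = 0.00431) and Tnfaip2 at 0.25 (adjusted p = 0.00946). Il11 and Lif encode cytokines that signal through gp130, whose gene Il6st is described below with the dormancy factors. These libraries are bulk RNA, in which fewer cells of a type and less RNA per cell cannot be told apart. Leukocyte markers summed to 93.1 to 101.7 CPM with shMed4 #1 and 94.5 to 103.6 CPM with shMed4 #4, and 5 of 26 were at 0.

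The largest falls among genes that averaged 5 CPM or more mixed signalling, matrix and cytoskeletal genes. Gfra2, a co-receptor for the neurotrophic factor neurturin, had 7.32, 13.8 and 10.7 CPM with shMed4 #1, 0.243, 0.745 and 0.123 CPM with shMed4 #4 and 2.5, 2.08 and 2.71 CPM in NTC, with a log2 difference of -4.80 (SE 0.36, adjusted p = 1.1e-11). Igfbp7, a secreted binder of insulin-like growth factors, had 22, 23.3 and 19.9 CPM with shMed4 #1, 1.58, 0.621 and 1.23 CPM with shMed4 #4 and 5.996, 7.26 and 6.15 CPM in NTC, with a difference of -4.23 (SE 0.20, adjusted p = 5.26e-16). Vcan, the matrix proteoglycan versican, had 41.1, 32.1 and 36.4 CPM with shMed4 #1, 3.04, 3.85 and 2.46 CPM with shMed4 #4 and 13.2, 13.9 and 13.2 CPM in NTC, with a difference of -3.55 (SE 0.15, adjusted p = 3.87e-17). In each of these 3 genes shMed4 #1 was the highest group, NTC lay between and no libraries overlapped. Dhx40, a helicase of the DEAH family, had 15.6, 14.5 and 16.1 CPM with shMed4 #1, 1.82, 0.993 and 1.84 CPM with shMed4 #4 and 4.25, 3.76 and 4.55 CPM in NTC, with the same order and a difference of -3.30 (SE 0.20, adjusted p = 9.36e-14). Nbl1, a secreted antagonist of BMP ligands, differed by -3.20 (SE 0.26, adjusted p = 6.64e-11), and Tpm2, an actin-binding tropomyosin, by -2.78 (SE 0.23, adjusted p = 7.56e-11). Map2, a microtubule-associated protein of neurons, had 10.9, 9.06 and 8.43 CPM with shMed4 #1, 0.852, 0.497 and 1.35 CPM with shMed4 #4 and 9.24, 9.21 and 8.86 CPM in NTC, so that NTC sat with shMed4 #1, and differed by -3.38 (SE 0.27, adjusted p = 2.89e-11).

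Xist, the long noncoding RNA that coats the inactive X chromosome, was far lower with shMed4 #4. It had 56.6, 40.6 and 55 CPM with shMed4 #1, 2.8, 2.61 and 5.03 CPM with shMed4 #4 and 47.2, 45.7 and 38.3 CPM in NTC, with a log2 difference of -3.87 (SE 0.16, adjusted p = 3.87e-17). NTC and shMed4 #1 overlapped, and the shMed4 #4 libraries lay far below both. Of 381 genes tested on the X chromosome, 53 were higher and 56 were lower (median 0.02). Tsix, which is transcribed from the other strand and covers 11.5% of the Xist exons, had 23 reads with shMed4 #1 and 2 with shMed4 #4.

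**Figure D3:**
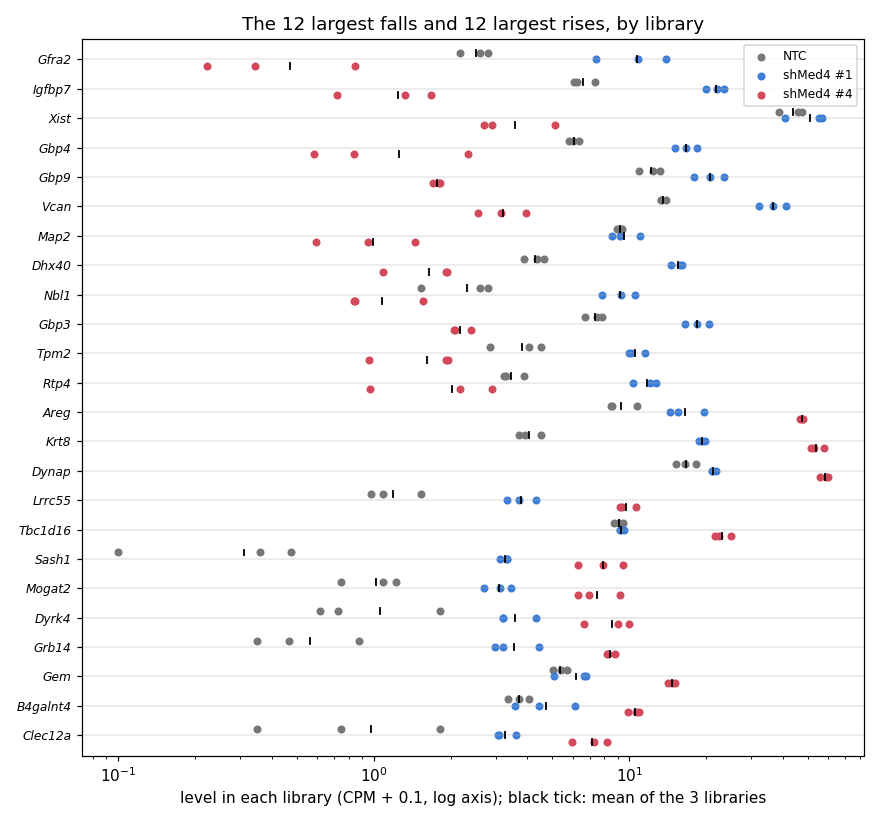
CPM per library on a log axis for the 12 largest falls and 12 largest rises with shMed4 #4 by the naming rule, 1 point per library of NTC, shMed4 #1 and shMed4 #4. The falls reach further from shMed4 #1 than the rises, for example Gfra2 at a log2 difference of -4.80 against Areg at 1.52.

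Some genes were read with shMed4 #1 and almost not with shMed4 #4. Cxcl12, the chemokine ligand of CXCR4, had 200 reads over the 3 shMed4 #1 libraries, 1 read with shMed4 #4 and 50 in NTC. The ratio between hairpins was 195 with a 95% counting interval of 34.7 to 7757, which covers counting error only. Perp, a desmosomal target of p53, had 234 reads against 5, with a log2 difference of -5.42 (SE 0.36, adjusted p = 5.27e-13), and Aim2 had 102 against 4, with -4.52 (SE 0.46, adjusted p = 6.93e-09). Gtpbp10 had 53 reads and Pak3, a kinase downstream of Rac and Cdc42, had 47 with shMed4 #1, and shMed4 #4 held 0 of either. Set against a floor of 3 counts over the group, they were at least 17.3-fold and at least 15.3-fold lower. Counted over all genes, 13 had at least 30 reads with shMed4 #1 and at most 3 with shMed4 #4, of which 8 passed the test. Genes with few reads in a library fall to the low-count filter, so the others of the 13 need not have been tested. The reverse held for 1 gene, the germ-cell factor gene Dppa2 (38 reads against 1, and 0 in NTC). Dppa2 was not among the genes tested, whose highest log2 difference was 3.69. These genes were chosen after their values were seen, apart from Cxcl12, Perp and Aim2.

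Among genes that averaged 5 CPM or more, the largest rises with shMed4 #4 were smaller than the largest falls and began with an EGFR ligand and a keratin. Areg, which encodes amphiregulin, had 15.4, 19.4 and 14.3 CPM with shMed4 #1, 47.2, 47.8 and 46.5 CPM with shMed4 #4 and 8.37, 10.6 and 8.49 CPM in NTC, with a log2 difference of 1.52 (SE 0.10, adjusted p = 2.32e-13). Krt8, the keratin of simple epithelia, had 19.1, 19.7 and 18.7 CPM with shMed4 #1, 57.4, 52.9 and 51.2 CPM with shMed4 #4 and 3.62, 4.41 and 3.81 CPM in NTC, with a difference of 1.48 (SE 0.09, adjusted p = 3.12e-14). Dynap, which encodes a dynactin-associated protein, had 21.7, 20.9 and 21 CPM with shMed4 #1, 58.8, 55.5 and 59.8 CPM with shMed4 #4 and 18.1, 16.4 and 15.1 CPM in NTC, with a difference of 1.45 (SE 0.08, adjusted p = 1.73e-14). For all 3 the group means had the order NTC, shMed4 #1, shMed4 #4, without overlap between the hairpins. The other genes of this group were Lrrc55, an auxiliary subunit of potassium channels, at 1.38, the Rab regulator Tbc1d16 at 1.31, the scaffold Sash1 at 1.29 and the acyltransferase Mogat2 at 1.29. Dyrk4, a protein kinase, stood at 1.27, the insulin receptor adaptor Grb14 at 1.26, the small GTPase Gem at 1.25, the glycosyltransferase B4galnt4 at 1.17 and the myeloid lectin Clec12a at 1.15. Their adjusted p ranged from 5.18e-10 to 7.2e-05.

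The AP-1 recognition sequence TGANTCA, which reads the same on both strands apart from its middle base, was found in the windows of 10 of 47 genes at least 2-fold higher (21.3%), 598 of 9671 tested genes (6.18%) and 2565 of all 32851 windows (7.81%). It was also found for 18 of 183 genes at least 2-fold lower (9.84%). On the interferon-stimulated list, which was mostly lower, 10 of 34 genes with a window had it (29.4%). The sequence was thus not confined to genes that were higher, and differences between these shares were not tested. Over all 598 tested genes that have it, 16.2% were higher and 16.9% were lower, with a median of -0.01. Outside the interferon-stimulated list, 97 of 588 such genes were higher and 92 were lower, with a median of 0.00. A pair of windows shows it in capitals, for the uridine phosphorylase gene Upp1 (log2 difference 1.80, adjusted p = 8.32e-07) and the endothelial adhesion gene Sele (2.01, adjusted p = 0.000189), both chosen after their values were seen. As above, 100 upstream bases from RefSeq on GRCm38.p6 are given, and a match shows no binding.
Upp1 (chr11:9117908-9118007, plus strand): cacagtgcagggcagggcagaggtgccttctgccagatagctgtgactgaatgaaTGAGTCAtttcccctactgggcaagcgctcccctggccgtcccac
Sele (chr1:164048116-164048215, plus strand): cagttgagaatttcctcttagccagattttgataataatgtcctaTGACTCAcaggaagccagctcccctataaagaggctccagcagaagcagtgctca

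Among mammary lineage genes, 5 of 9 tested were higher with shMed4 #4 and 1 was lower (median 0.63). Krt18, the partner of Krt8, had 76.6, 90.7 and 74.6 CPM with shMed4 #1, 143, 131 and 124 CPM with shMed4 #4 and 19.99, 20.2 and 21.3 CPM in NTC, with no overlap and a difference of 0.71 (SE 0.07, adjusted p = 2.1e-09). Acta2, the smooth muscle actin of myoepithelium, differed by 0.50 (SE 0.06, adjusted p = 3.65e-08). The lower member, Cd24a, averaged 93.6 CPM with shMed4 #1 and 75.7 CPM with shMed4 #4. The 29 listed markers summed to 908 to 953 CPM with shMed4 #1 and 1259 to 1441 CPM with shMed4 #4, and 9 of them were at 0 in all 9 libraries. Acta2 makes up most of both sums and of the difference between them, at a mean of 707 CPM with shMed4 #1 and 1002 CPM with shMed4 #4. Genes of epithelial junctions were divided, with 3 higher and 3 lower of 13 tested (23.1% each, median 0.09), beside 13.9% and 14.0% of all genes tested. F11r, a tight junction adhesion molecule, stood at 0.36 and Pkp1, a desmosomal plaque protein, at 0.28, against Cldn12 at -0.26 and Perp. Without shMed4 #1 replicate 1 F11r did not pass (adjusted p = 0.0508) and 1 junction gene was higher.

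Of 22 mesenchymal genes and factors of epithelial-mesenchymal transition, 4 were higher (18.2%) and 5 lower (22.7%), with a median of -0.01. Over all genes tested the shares were 13.9% and 14.0%. Cdh11, the mesenchymal OB-cadherin, had 12.4, 12.7 and 13.2 CPM in the shMed4 #1 libraries and 3.53, 3.6 and 5.16 CPM in the shMed4 #4 libraries, with a difference of -1.64 (SE 0.17, adjusted p = 7.17e-09). Fat4, a giant protocadherin, had 27.6, 21.6 and 25.3 CPM in the shMed4 #1 libraries and 5.47, 6.95 and 8.1 CPM in the shMed4 #4 libraries, with a difference of -1.86 (SE 0.14, adjusted p = 7.42e-12). In both, no libraries of the hairpins overlapped. NTC averaged 42.85 CPM for Cdh11 and 69.72 CPM for Fat4, above both hairpins. Vim differed by -0.45 (SE 0.05, adjusted p = 5.65e-08) and the transcription factor gene Sox4, with 54.6% of its exons under an antisense gene, by 0.42 (SE 0.06, adjusted p = 9.2e-07).

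Basement membrane collagen was lower with shMed4 #4, while other matrix genes went both ways. Col4a1 had 168, 163 and 163 CPM in the shMed4 #1 libraries and 68, 76.7 and 70.2 CPM in the shMed4 #4 libraries, and Col4a2, its partner in the collagen IV trimer, had 111, 106 and 109.6 CPM in the shMed4 #1 libraries and 39.8, 43.5 and 41 CPM in the shMed4 #4 libraries. Neither gene's libraries overlapped, with log2 differences of -1.21 (SE 0.06, adjusted p = 6.75e-16) and -1.40 (SE 0.06, adjusted p = 2.26e-16). NTC averaged 587.1 CPM for Col4a1 and 328.5 CPM for Col4a2, far above both hairpins. Over 40 collagen and structural matrix genes tested, 15 were lower (37.5%) and 11 higher (27.5%), with a median of -0.12. Shares over all genes tested were 14.0% lower and 13.9% higher. Ecm1 stood at -0.73. Among 50 genes of matrix remodelling, 18 were higher (36%) and 10 lower (20%), with a median of 0.06. Has2, which makes hyaluronan, had 12.8, 13.3 and 11.6 CPM in the shMed4 #1 libraries and 24.7, 25.4 and 24.2 CPM in the shMed4 #4 libraries, with a difference of 0.98 (SE 0.11, adjusted p = 2.79e-08). The metalloprotease gene Adam12 differed by 0.78 (SE 0.06, adjusted p = 3.73e-11). Loxl4, which crosslinks collagen, differed by -0.76 (SE 0.08, adjusted p = 9.71e-09). Ltbp2, a microfibril protein, had 368, 332 and 361 CPM in the shMed4 #1 libraries and 213, 226 and 221 CPM in the shMed4 #4 libraries, a difference of -0.69 (SE 0.05, adjusted p = 1.39e-11).

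Adhesion and contractile genes were more often higher than lower, beside 13.9% higher and 14.0% lower over all genes tested. Of 34 integrin and focal adhesion genes, 12 were higher (35.3%) and 4 lower (11.8%), with a median of 0.11. Of 24 smooth muscle and contractile genes, 9 were higher (37.5%) and 2 lower (8.3%), with a median of 0.10. Zyx, which encodes the focal adhesion protein zyxin, had 291, 298 and 301 CPM in the shMed4 #1 libraries and 442, 433 and 415 CPM in the shMed4 #4 libraries, did not overlap and differed by 0.53 (SE 0.05, adjusted p = 1.22e-09). Itga5, of the fibronectin receptor, stood at 0.38 and the docking protein gene Bcar1 at 0.38, whereas Itga1, of a collagen receptor, had 60.1, 52.8 and 57.3 CPM in the shMed4 #1 libraries and 35.5, 35.4 and 37.4 CPM in the shMed4 #4 libraries, a difference of -0.66 (SE 0.07, adjusted p = 5.79e-08). Actg2, an enteric smooth muscle actin, stood at 0.50, and Mylk, the myosin light chain kinase, at -0.62, both past the threshold. Tpm2, among the largest falls, is the other contractile gene that was lower.

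ERK-linked genes were more often higher than lower, beside 13.9% higher and 14.0% lower over all genes tested. Of 40 immediate-early genes and ERK feedback regulators, 15 were higher and 5 lower (median 0.17), and the number lower was 1 with DESeq2 and 2 or 3 without shMed4 #1 replicate 2 or 3 or shMed4 #4 replicate 2 or 3. Dusp4, a nuclear MAP kinase phosphatase, had 74.2, 73.7 and 75 CPM with shMed4 #1, 138, 147 and 138 CPM with shMed4 #4 and 35.7, 40.4 and 40.2 CPM in NTC, with a difference of 0.92 (SE 0.06, adjusted p = 1.96e-13). The order was NTC, shMed4 #1, shMed4 #4, with no overlap. The ETS factor gene Etv5 differed by 0.80 (SE 0.08, adjusted p = 1e-08), the early response gene Ier3 by 0.67 (SE 0.05, adjusted p = 3.73e-11) and the ERK phosphatase gene Dusp6 by 0.55 (SE 0.06, adjusted p = 1.31e-08). Receptor tyrosine kinases and their ligands gave 15 higher and 8 lower of 45 (median 0.12). Igf2r, which clears IGF2, had 55.6, 53 and 49.8 CPM in the shMed4 #1 libraries and 17.4, 21.1 and 17.7 CPM in the shMed4 #4 libraries, and the ephrin receptor gene Ephb2 had 24.3, 23.9 and 21.2 CPM in the shMed4 #1 libraries and 8.27, 6.58 and 5.89 CPM in the shMed4 #4 libraries. Both were lower without overlap, with differences of -1.50 (SE 0.09, adjusted p = 7.56e-14) and -1.75 (SE 0.13, adjusted p = 1.39e-11). NTC averaged 42.87 CPM for Igf2r, between the hairpins, and 67.15 CPM for Ephb2, above both.

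In TGF-beta and BMP signalling, 7 of 36 genes were higher (19.4%) and 10 lower (27.8%), beside 13.9% and 14.0% of all genes tested. The median was -0.07, with 6 lower by DESeq2 and 5 after the local chromosomal shift was removed. The ligand gene Tgfb3 stood at -0.62, Id3, an inhibitor of helix-loop-helix factors, at -0.41 and Ltbp1, which holds latent TGF-beta in the matrix, at 0.32. Targets and factors of YAP and TAZ gave 10 higher (34.5%) and 7 lower (24.1%) of 29 (median -0.02), with 6 higher without shMed4 #1 replicate 3. F3, which encodes tissue factor, stood at 0.73, the partner gene Tead2 at 0.46, the YAP kinase gene Lats2 at -0.55 and Gadd45b at -0.69. Wnt and Notch genes gave 5 higher and 6 lower of 32, with a median of -0.04 and 4 higher and 3 lower by DESeq2. Their shares of 15.6% and 18.8% were near those of all genes tested. Wnt4, a Wnt ligand, had 2.48, 2.9 and 2.66 CPM in the shMed4 #1 libraries and 0.243, 0.372 and 0.123 CPM in the shMed4 #4 libraries, a difference of -3.38 (SE 0.44, adjusted p = 5.92e-07). Tcf7, a nuclear mediator of Wnt signals, stood at 0.69, the Notch ligand gene Jag1 at 0.54 and the receptor gene Fzd6 at -0.68, all past the threshold.

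Replication-dependent histones, whose messages normally lack a poly(A) tail, were lower at 8 of 9 tested members of 70 listed (median -1.40). Hist1h1c, a linker histone, had 10.8, 11.7 and 11.9 CPM with shMed4 #1, 3.53, 3.35 and 3.19 CPM with shMed4 #4 and 6.5, 8.69 and 8.49 CPM in NTC, with no overlap of the hairpins and a difference of -1.77 (SE 0.17, adjusted p = 2.67e-09). Hist1h2bc stood at -1.40, Hist2h2be at -1.18 and Hist2h2aa2 at -1.78, the last lying wholly under antisense exons. Histone copies are near-identical, so single genes are uncertain. The list summed to 50.1, 45.7 and 45.6 CPM with shMed4 #1 and 18.2, 17.1 and 18.4 CPM with shMed4 #4.

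DNA replication and mitosis genes gave no common direction, while p53 targets and CDK inhibitors were more often lower than higher. DNA replication genes gave 7 higher and 4 lower of 50 (median 0.02), shares close to those of all genes tested or below, with 2 lower by DESeq2 and without shMed4 #1 replicate 1 or shMed4 #4 replicate 3, and 3 higher with the local chromosomal shift removed. Among them were Pola1, the catalytic polymerase alpha subunit, at -0.49, Ccne1 at 0.33, Mcm2 at 0.27 and Chaf1a at 0.27. Mitosis genes gave 6 higher and 7 lower of 40 (median -0.03), also near the shares of all genes tested. By DESeq2 they gave 4 higher and 2 lower, without shMed4 #1 replicate 3 they gave 3 and 3, and 3 or 4 were lower without shMed4 #1 replicate 1 or shMed4 #4 replicate 1 or 3. The kinetochore motor gene Cenpe stood at -0.39, Foxm1 at 0.26, Espl1 at 0.29 and Cdc25b at 0.24. Among p53 targets and CDK inhibitors, 14 of 36 were lower (38.9%) and 5 higher (13.9%), beside 14.0% and 13.9% of all genes tested. Their median was -0.08, with 3 higher by DESeq2. Cdkn2c, the inhibitor p18, had 83, 85.9 and 84.9 CPM in the shMed4 #1 libraries and 51.6, 41.6 and 46 CPM in the shMed4 #4 libraries, which did not overlap, a difference of -0.87 (SE 0.07, adjusted p = 5.9e-11). Sesn1, a stress-induced sestrin, differed by -0.73 (SE 0.09, adjusted p = 1.66e-07) and the death receptor gene Fas by -0.70 (SE 0.08, adjusted p = 6.31e-08).

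Dormancy-associated factors, listed because D2A1-d models dormant disseminated tumour cells, were evenly divided. Of 28, 9 were higher and 9 lower (32.1% each, median 0.06), beside 13.9% and 14.0% of all genes tested. Il6st, the shared gp130 receptor of the IL-6 family, had 260.2, 262 and 266 CPM with shMed4 #1, 133, 145 and 146 CPM with shMed4 #4 and 250.1, 275 and 267 CPM in NTC, with NTC near shMed4 #1 and a difference of -0.90 (SE 0.05, adjusted p = 5.47e-14). Gas1, a growth arrest protein, had 26.8, 25.9 and 28.3 CPM in the shMed4 #1 libraries and 10.6, 9.56 and 14.2 CPM in the shMed4 #4 libraries, a difference of -1.24 (SE 0.12, adjusted p = 2.23e-09), and the repressor gene Hbp1 differed by -0.54 (SE 0.06, adjusted p = 1.53e-07). Serpinf1, the anti-angiogenic factor PEDF, had 83, 87.3 and 83.5 CPM with shMed4 #1, 165, 155 and 148 CPM with shMed4 #4 and 9.87, 12.4 and 12.2 CPM in NTC, and was higher by 0.88 (SE 0.06, adjusted p = 6.11e-13). The hairpins did not overlap for Il6st, Gas1 or Serpinf1.

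Genes of protein folding, amino acid supply, sterol synthesis and translation were more often higher than lower with shMed4 #4, by small amounts. Shares over all genes tested were 13.9% higher and 14.0% lower. In the unfolded protein response, 14 of 29 were higher and 1 lower (median 0.13), with 8 higher without shMed4 #4 replicate 2. Hspa5, the chaperone BiP, had 2454, 2509.8 and 2388 CPM with shMed4 #1, 3069.6, 3099 and 3040.1 CPM with shMed4 #4 and 2165, 2016 and 1880.2 CPM in NTC, in order without overlap and with a difference of 0.32 (SE 0.05, adjusted p = 9.14e-06). Pdia4 stood at 0.40 and Creld2 at 0.38, both folding factors of the endoplasmic reticulum, and the lower member was the co-chaperone gene Dnajb9 at -0.49. ATF4 response genes gave 12 higher and 3 lower of 34 (median 0.12), among them the serine synthesis gene Psat1 at 0.40, the folate enzyme gene Mthfd2 at 0.38, the transporter gene Slc7a5 at 0.34 and the tRNA synthetase gene Gars at 0.34. Of 24 cholesterol synthesis genes, 9 were higher and 15 did not pass (median 0.15). Dhcr7, the last enzyme of one branch of the pathway, had 37.5, 41.3 and 39 CPM in the shMed4 #1 libraries and 61.3, 54.6 and 57 CPM in the shMed4 #4 libraries, which did not overlap, a difference of 0.55 (SE 0.07, adjusted p = 1.19e-06), with Lss at 0.42 and the regulator gene Srebf2 at 0.24. Cytosolic ribosomal protein genes gave 27 higher and 1 lower of 83 (median 0.10), with 16 higher without shMed4 #1 replicate 1 and 17 without shMed4 #4 replicate 1. Rps12 stood at 0.41, Rps2 at 0.33, Rpl7 at 0.33 and Rps29 at -0.31, and their pseudogene copies make single values uncertain.

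Other metabolic lists moved less, beside 13.9% of all genes tested that were higher and 14.0% that were lower. Fatty acid and lipid uptake genes gave 8 higher (29.6%) and 3 lower (11.1%) of 27 (median 0.08). The lipid carrier gene Fabp5 stood at 0.39, the elongase gene Elovl6 at 0.36, the desaturase gene Fads3 at 0.28 and the carnitine transferase gene Cpt1a at -0.35. Hypoxia and glycolysis genes gave 4 higher (11.1%) and 8 lower (22.2%) of 36 (median -0.06). The number lower was 5 by DESeq2 or without shMed4 #4 replicate 3. The number higher was 2 without shMed4 #1 replicate 3 or shMed4 #4 replicate 2. Hk2, a hexokinase, stood at 0.60 and Gapdh at 0.37, while Pdk1, which holds pyruvate out of mitochondria, stood at -0.47 and Pfkfb3 at -0.50. Mitochondrially encoded proteins gave 3 higher of 12 (median 0.07), namely mt-Nd1 at 0.17, mt-Nd5 at 0.15 and mt-Nd6 at 0.29. Without shMed4 #1 replicate 2 or 3 or shMed4 #4 replicate 3 neither mt-Nd1 nor mt-Nd5 passed (adjusted p = 0.0543 to 0.186), and mt-Nd1 also failed without shMed4 #4 replicate 1 and mt-Nd5 without shMed4 #4 replicate 2. Nuclear respiratory genes gave 4 higher and 5 lower of 54 (median -0.01), a lower share than over all genes tested, with Cox7c at -0.38, Ndufa3 at -0.29, Sdha at -0.27 and Ndufv2 at 0.19. Ndufa3 and Ndufv2 did not pass by DESeq2 (adjusted p = 0.0936 and 0.0786) or without shMed4 #1 replicate 1 or shMed4 #4 replicate 3, nor did Ndufa3 without shMed4 #4 replicate 2. Leaving out single libraries gave 0 to 4 nuclear respiratory genes higher and 2 to 8 lower, the 0 without shMed4 #1 replicate 1, the 2 without shMed4 #4 replicate 2 or 3 and the 8 without shMed4 #4 replicate 1. DESeq2 gave 0 higher and 2 lower.

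NRF2 targets gave 6 higher (18.2%) and 8 lower (24.2%) of 33, beside 13.9% and 14.0% of all genes tested, with a median of 0.00. The glutathione transferase genes Gsta4, Gstm1 and Gstm2 stood at -1.33, -0.95 and -0.88, of which the last pair are related genes of 1 family, and Hmox1, the heme oxygenase, at 0.58. Polycomb, heterochromatin and DNA methylation genes gave 8 higher and 9 lower of 51 (median 0.01), shares of 15.7% and 17.6% near the 13.9% and 14.0% of all genes tested. The number higher was 3 by DESeq2 and without shMed4 #1 replicate 3 or shMed4 #4 replicate 2, and 5 without shMed4 #4 replicate 1. Of single genes, Tet2, which oxidises methylcytosine, had 14, 11.5 and 13.9 CPM in the shMed4 #1 libraries and 7.05, 6.21 and 7.49 CPM in the shMed4 #4 libraries, a difference of -0.93 (SE 0.15, adjusted p = 1.38e-05), while Pcgf5 stood at -0.64, Suv39h1 at -0.54 and Cbx6 at -0.50. The RNA interference machinery, which processes both hairpins, gave 4 higher and 4 lower of 18 (22.2% each, median 0.03), beside the same 13.9% and 14.0%. By DESeq2 2 were lower, and with the local chromosomal shift removed 1 was higher. The dicer partner gene Tarbp2 stood at 0.35, Ran at 0.28, the effector gene Ago1 at -0.34 and Tnrc6b at -0.27.

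Among the most abundant genes past 1.5-fold, Neat1, the noncoding scaffold of paraspeckles, had 434, 360.1 and 406 CPM with shMed4 #1, 215, 230.0 and 267 CPM with shMed4 #4 and 1162, 1119.8 and 1036 CPM in NTC, with a difference of -0.76 (SE 0.07, adjusted p = 2.26e-10). Kif5b, a kinesin motor, had 409, 354 and 374 CPM in the shMed4 #1 libraries and 213, 225 and 242 CPM in the shMed4 #4 libraries, a difference of -0.75 (SE 0.06, adjusted p = 1.48e-11). Akr1b3, the aldose reductase, was the only higher gene of the 6 named by this rule, with 305, 284 and 331 CPM in the shMed4 #1 libraries and 518, 461 and 504 CPM in the shMed4 #4 libraries, a difference of 0.68 (SE 0.06, adjusted p = 1.01e-10). The hairpins did not overlap at any of these 3 genes.

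Markers of other cell types gave small counts. No leukocyte marker of 5 tested passed by edgeR or by DESeq2, and 1 had an unadjusted p below 0.05. Of 3 endothelial markers Flt1 was higher at 0.33 (adjusted p = 0.00938), and the listed markers summed to 32.3 to 33.1 CPM with shMed4 #1 and 36.3 to 38.7 CPM with shMed4 #4. Stromal fibroblast markers gave 3 higher (30%) and 4 lower (40%) of 10, beside 13.9% and 14.0% of all genes tested. Fbln1 stood at 0.56, and the list had a sum of 885 to 1009 CPM against 666 to 702 CPM. C3, which stands on this list too, carries that difference, and without it the sum was 316 to 335 CPM against 341 to 361 CPM. Both tested adipocyte and muscle markers, the actin gene Acta1 at 0.67 and the troponin gene Tnnt3 at 1.10, were higher, at a sum of 5.19 to 6.35 CPM against 8.51 to 10.7 CPM. Neither passed by DESeq2 (adjusted p = 0.113 and 0.0988), nor did Flt1 (adjusted p = 0.0642). Of single libraries, shMed4 #1 replicate 2 and shMed4 #4 replicate 2 decided Acta1, shMed4 #1 replicates 1 and 3 and shMed4 #4 replicate 3 decided Tnnt3, and shMed4 #1 replicate 3 and shMed4 #4 replicate 1 decided Flt1.

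**Figure D4:**
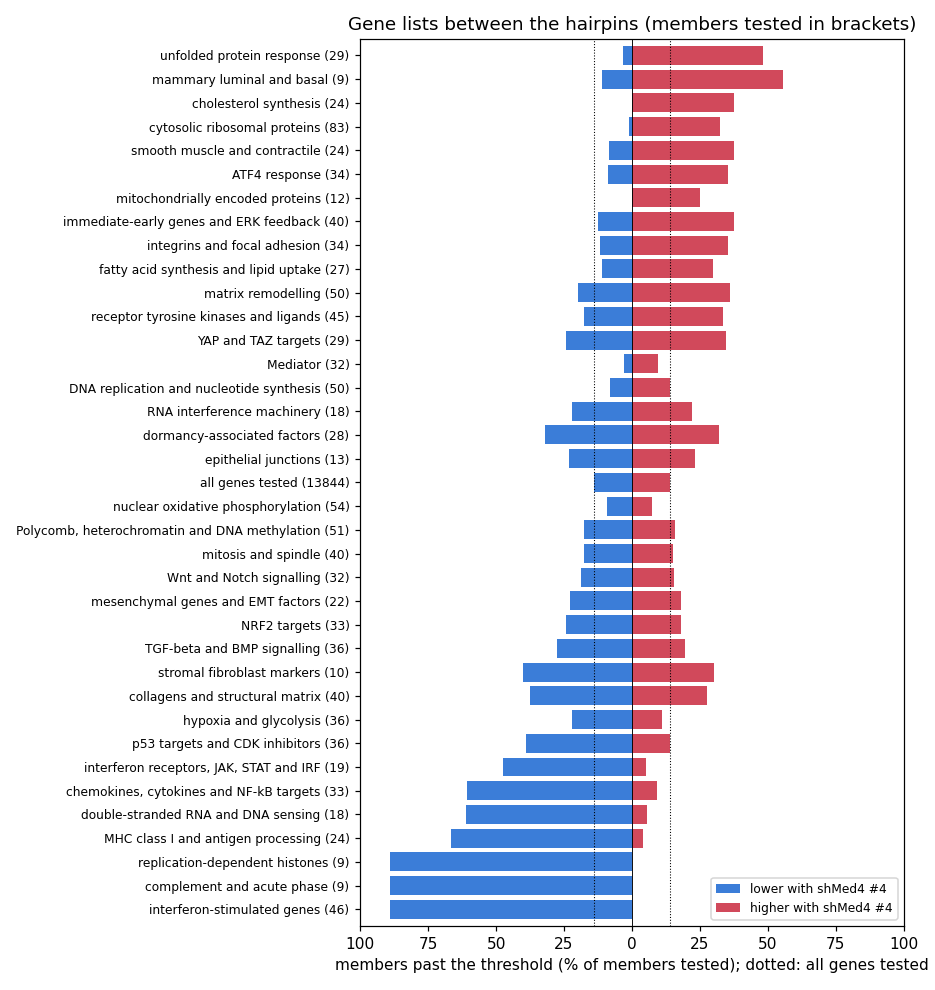
Percentage of the tested members of each gene list that were higher and lower with shMed4 #4, as bars to either side of 0. Members tested are in brackets, dotted lines mark all genes tested, and lists with the fewest tested members are left out. Interferon-stimulated genes (89.1% lower), histones (88.9%) and complement and acute-phase genes (88.9%) lie lowest, with 0% higher in each. Unfolded protein response genes (48.3% higher, 3.4% lower) and mammary genes (55.6% higher, 11.1% lower) lie at the other end.

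The calls were unevenly spread over chromosomes. Chromosome 6 had 230 genes higher and 60 lower of 715 tested (median 0.13), and chromosome 15 had 142 higher and 57 lower of 563. Chromosome 3 had 39 higher and 198 lower of 702 (median -0.11), chromosome 13 had 30 higher and 138 lower of 517 (median -0.14) and chromosome 12 had 28 higher and 117 lower of 491 (median -0.10). A stretch of shifted neighbours ran on chromosome 3 from 135348029 to 159938664 in GRCm38, from Slc9b1 to Wls, with 83 genes tested, 53 lower, 4 higher and a median of -0.29. It holds Gbp2, Gbp3, Gbp7 and Ifi44 of the interferon-stimulated list, and the neighbours of the 3 Gbp genes had medians of -0.28 to -0.30, against differences of -1.96 and -3.13 for Gbp2 and Gbp3 themselves. Subtracting the median of 25 tested neighbours on each side ended the calls of Mcm2 (0.09), Chaf1a (0.14), Espl1 (0.10), Fads3 (0.14), Tarbp2 (0.19), Med7 (0.20), Ndufv2 (0.01) and Acta1 (0.55). With that correction Cenpe stood at -0.17, Cox7c at -0.20, Dnajb9 at -0.28, Sdha at -0.16, Rps29 at -0.19, Foxm1 at 0.15, Itga5 at 0.23, Ltbp1 at 0.20, Mthfd2 at 0.24, Psat1 at 0.25 and Rpl7 at 0.21, all still past the threshold.

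**Figure D5:**
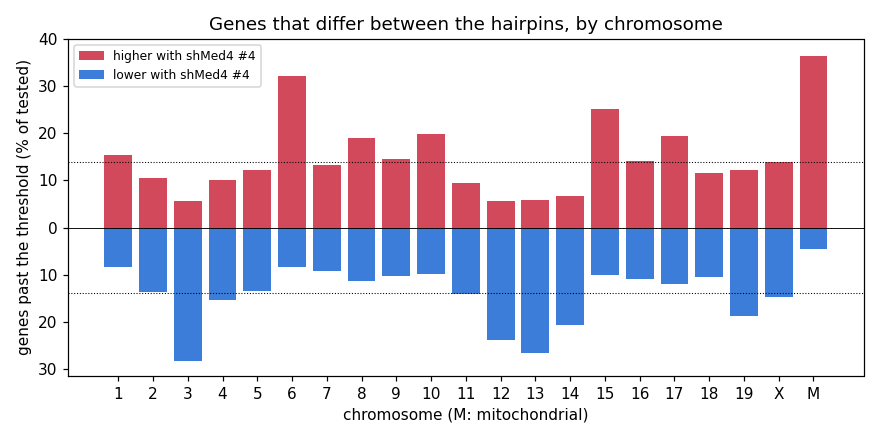
Genes higher and lower with shMed4 #4 as a percentage of the genes tested on each chromosome. Chromosome 6 has 230 higher and 60 lower of 715, and chromosome 3 has 39 higher and 198 lower of 702.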

How the data were processed

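Per the labels' protocols, total RNA was prepared from D2A1-d cells with a Maxwell kit and DNase, and a BGISEQ-500 read the libraries. The submitters' processing notes name STAR, HTSeq and mm10 (GRCm38). Which tool versions, annotation release and strand setting were used is not given in the sources used here. The authors deposited raw counts of reads for each gene, 1 file per library, each with 5 summary lines that name no gene. In the 6 libraries, reads outside genes were 49.5 to 50.4% of the records, alignments to several places 10.5 to 11.1% and ambiguous reads 0.917 to 0.951%, and all were left out. Of 55335 gene identifiers, 55154 matched a symbol; coordinates and antisense overlap come from GENCODE on GRCm38.

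Genes were kept by filterByExpr (minimum count 10) and tested with edgeR 4.0.16 in R 4.3.3 by glmQLFit and glmQLFTest on the 6 libraries with TMM factors (0.981 to 1.02). SE is the size of the log2 difference over the square root of F. The common biological coefficient of variation was 0.0441. Levels are CPM with TMM factors over all 9 libraries. Within each hairpin, every pair of libraries differed by more than sampling noise (chi-square 1.57 to 3.12 per degree of freedom). Simulated counts over 13662 genes, of which 200 were changed, were put through the same steps. These recovered 76% of 1.5-fold and 89% of 2-fold changes, with 15 false calls. A far larger share of genes, 27.9%, was called in the data, so these rates describe the simulated setting only.

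The members, the 39 gene lists (1252 genes, 1097 tested) and the tests were chosen with earlier results of these data known. Named genes are Med4, Mediator subunits, the 12 largest rises and falls at a mean of at least 5 CPM without overlap, the 6 most abundant calls past 1.5-fold, and up to 4 calls with the smallest adjusted p per list. Any other gene was chosen after its values were seen, and a few that the rule takes are left out here. Alternatives were DESeq2 1.42.0, limma-voom (limma 3.58.1), other scalings and filters, all 9 libraries in the fit, a replicate block, GC and length trends or the local chromosomal shift removed, no mitochondrial genes, and each library left out.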

Additional observations from a re-analysis of the deposited data

How the results depend on the processing

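None of the 160 genes that the naming rule takes past the threshold changed direction under any of the 17 alternatives. List medians near 0 did change sign, in 8 lists, none of which had a median size over 0.09. The balance of higher and lower members turned in 4 lists (mitosis, Wnt and Notch, nuclear respiratory and Polycomb genes). DESeq2 called 1252 genes higher and 1133 lower, and 2351 of its 2385 calls were among the 3862 of edgeR. With DESeq2 the Med4 difference was 0.67 and its adjusted p 0.0689. Without a low-count filter 124 genes were at least 2-fold higher. Upper-quartile scaling gave 1785 higher and 2030 lower. Leaving out each library in turn gave 1520 to 1674 higher, 1544 to 1758 lower, 77 to 89 at least 2-fold higher and 323 to 341 at least 2-fold lower, and a Med4 difference of 0.58 to 0.77. Of those 160 genes, 143 passed in every setting. Removing the local chromosomal shift left 3402 calls, of which 2842 were shared and 2 were opposite in sign.

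Libraries with the same replicate number did not deviate together (correlations of -0.0598, 0.0213 and -0.00435), beside -0.0837 to 0.081 for unlike numbers. Such values cannot show whether the replicates were handled in pairs, which the labels do not state. With the replicate block 1739 genes were higher and 1770 lower, 76 and 328 of them by at least 2-fold, and Med4 differed by 0.66 (adjusted p = 0.0108 by edgeR). At this depth, genes of a few CPM carry wide errors.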
